A study of Homo sapiens with 20 samples.

Results

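The genes described here are 46 genes of DNA replication and of the G1/S transition, the step at which a cell commits to copying its genome. They were taken by exact symbol from a fixed list of names, and all 46 were present among the 23368 genes of the count tables. The rule that picks them uses no measured value, though the list was chosen with earlier results of these data known. All 46 also passed the filter on low counts in both cell lines, where 13218 genes were tested in Panc1 and 14124 in A549, and the lowest count of any of the 46 in a library was 83 in Panc1 (E2F2) and 63 in A549 (CCNE2).

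In G1, the origin recognition complex with CDC6 and CDT1 loads the MCM2 to MCM7 ring onto origins, which licenses them for one round of replication. Cyclin E with its kinase, and the CDC7 kinase with its partner DBF4, then fire the licensed origins: CDC45 and the GINS complex join the ring to form the active helicase, and primase, polymerases, the PCNA clamp and its RFC loader copy the DNA. Most of these genes are transcribed under E2F factors, which the retinoblastoma proteins hold in check until cyclin-dependent kinases release them. TGFβ is known to arrest many epithelial cells in G1, partly through the kinase inhibitor CDKN1A (p21), and many carcinoma lines have lost part of that response. KLF10 is a zinc-finger factor of the Sp1/KLF family, is induced early by TGFβ, and its family binds GC-rich promoter sequence.

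The lines were Panc1, from a ductal carcinoma of the pancreas, and A549, from an adenocarcinoma of the lung. Cells received control siRNA (siCont) or siRNA that targets KLF10 (siKLF10), each without TGFβ or with TGFβ at 5 ng/ml for 72 h, which gave 4 groups per line with 3 libraries per group in Panc1 (A, B and C) and 2 in A549 (A and B). The series asked whether KLF10 limits the epithelial-to-mesenchymal transition that TGFβ induces. The labels give SV40 large T antigen, a viral protein that binds and inactivates retinoblastoma proteins, as the immortalization of every sample of both lines. Both lines came from carcinomas, so this entry is doubtful, and whether it is right was not tested. If right, it would be shared by all groups. The labels do not state the time of transfection, a vehicle for the groups without TGFβ, or whether libraries of a group came from separate cultures. The p-values therefore rest on the spread among libraries alone, and that spread may be technical. RNA came from bulk cultures, in which fewer cells in S phase and less of an mRNA per cell cannot be told apart.

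Levels are CPM, the counts of a gene relative to the total gene counts of its library, scaled by the TMM method within a line. Effects are log2 fold changes ± SE, and a gene was called, written as rose or fell, when its adjusted p from edgeR (quasi-likelihood F test, adjusted by Benjamini-Hochberg over all tested genes) was under 0.05. Gene counts per library summed to between 11152625 and 15571367 in Panc1 and between 6846761 and 19070551 in A549. Groups whose libraries do not overlap were common over all genes. In the pairwise comparisons of Panc1, 21.6 to 26.1% of genes were higher in every library and 22.2 to 25.7% lower. In A549, with 2 libraries per group, the shares were 31.2 to 37.2% and 30.3 to 39.1%. A lack of overlap given below is to be read beside these shares. KLF10 itself fell in Panc1 with siKLF10, with 130.3 to 140.2 CPM in siCont and 77.5 to 83.0 CPM in siKLF10, and 187 to 206 CPM and 101 to 104 CPM under TGFβ. The changes were -0.76 on the log2 scale without TGFβ (adjusted p = 2.58e-09) and -0.94 with it (adjusted p = 4.96e-11). In A549 it measured 107 and 110.3 CPM with siCont and 102 and 109 CPM with siKLF10, and 179 and 179 CPM and 142 and 151 CPM under TGFβ. Its A549 change was -0.05 ± 0.08 (adjusted p = 0.743) without TGFβ and -0.29 ± 0.08 (adjusted p = 0.00775) with it, so the libraries labelled siKLF10 of A549 without TGFβ did not show a lower KLF10 level, and that label is used below as given. The 3 Panc1 siCont libraries stood apart in another way: a list of 9 basal and squamous keratinocyte markers summed to 37.2 to 99.3 CPM there, highest in siCont A, against 12.2 to 22.2 CPM in the other 9 Panc1 libraries, and the G1/S inhibitor CDKN2A had 56, 18 and 39 counts in them against 0 to 6 in the others. In A549 the same marker list summed to 2.75 to 6.92 CPM without TGFβ, to 17.1 and 17.6 CPM with TGFβ, and to 38.9 and 40.5 CPM with siKLF10 and TGFβ. Of the 46, 15 were called with TGFβ in Panc1 and 23 with siKLF10. The counts were 13 and 20 without siCont A, 12 and 19 without siCont B, and 10 and 18 without siCont C. A list of 8 fibroblast markers, genes that TGFβ is known to induce among them, summed to 204 to 219.9 CPM in Panc1 siCont, 189 to 216 CPM with siKLF10, 1886 to 2010 CPM with TGFβ and 1814 to 2212 CPM with both. In A549 it summed to 7.91 to 8.39 CPM, 14.8 to 17.0 CPM, 171 to 186 CPM and 556 to 580.2 CPM in that order. The part of these markers in the results below was not tested. The summed tissue markers did not separate the lines by their tissue of origin. Of 10 ductal and pancreatic markers 5 exceeded 1 CPM in Panc1 siCont and 6 in A549 siCont, and their sum was higher in A549, at 6747 to 6832 CPM against 1084 to 1190 CPM. That list holds the keratins KRT7, KRT8, KRT18 and KRT19, and its members PTF1A and PRSS1 were not detected in siCont of either line. Of 8 lung alveolar markers 1 to 3 exceeded 1 CPM in the groups of A549. Their sum was 57.5 to 59.7 CPM in A549 siCont and 57.8 to 69.5 CPM in Panc1 siCont. AGER stood at 0 in siCont of both lines.

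Promoter windows of 300 bases (250 before the annotated start and 50 after it) were found for 40 of the 46 genes in RefSeq (GRCh38.p14); MCM4, MCM5, GINS4, CCNE2, E2F8 and RPA2 were unmatched. The letters TTTGGCGC or TTTCGCGC, an E2F site in its strict form, stood on one or the other strand in 12 of the 40 windows (30%) and in 1.18% of 27305 windows of the same length. A shorter form, TTGGCGC or TTCGCGC, which the strict form contains, stood in 42.5% against 5.18%. The letters CCAAT stood in 57.5% against 35.7%, the GC box GGGCGG, letters of the kind that Sp1/KLF factors bind, in 72.5% against 44.6%, and the cell cycle homology letters TTTGAA or TTCGAA of mitotic promoters in 7.5% against 16.6%. A match is a description of the letters and no evidence of binding. The windows below are printed for genes whose values in every library follow, 5′ to 3′ on the strand of the gene with the strict E2F letters in capitals; E2F7 and PCNA have none.
E2F2, chr1:23531184-23531483, minus strand: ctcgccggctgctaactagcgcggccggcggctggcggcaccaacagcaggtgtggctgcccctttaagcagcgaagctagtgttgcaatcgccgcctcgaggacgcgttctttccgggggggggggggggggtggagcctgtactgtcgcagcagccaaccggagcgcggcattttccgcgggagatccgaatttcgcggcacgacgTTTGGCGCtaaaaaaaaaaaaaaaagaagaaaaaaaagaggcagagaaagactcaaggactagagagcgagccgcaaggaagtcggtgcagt
CDC6, chr17:40287629-40287928, plus strand: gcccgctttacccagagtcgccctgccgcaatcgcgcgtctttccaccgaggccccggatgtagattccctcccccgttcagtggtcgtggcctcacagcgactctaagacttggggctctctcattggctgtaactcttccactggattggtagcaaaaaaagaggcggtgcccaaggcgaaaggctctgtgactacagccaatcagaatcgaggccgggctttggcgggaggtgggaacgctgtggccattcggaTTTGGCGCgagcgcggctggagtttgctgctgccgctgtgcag
MCM2, chr3:127598161-127598460, plus strand: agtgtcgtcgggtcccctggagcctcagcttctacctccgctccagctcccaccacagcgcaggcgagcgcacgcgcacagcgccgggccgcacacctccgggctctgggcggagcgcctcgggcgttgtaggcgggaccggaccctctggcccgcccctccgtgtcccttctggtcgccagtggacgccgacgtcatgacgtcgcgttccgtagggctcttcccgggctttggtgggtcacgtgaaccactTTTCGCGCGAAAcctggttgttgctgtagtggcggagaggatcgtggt
E2F7, chr12:77065520-77065819, minus strand: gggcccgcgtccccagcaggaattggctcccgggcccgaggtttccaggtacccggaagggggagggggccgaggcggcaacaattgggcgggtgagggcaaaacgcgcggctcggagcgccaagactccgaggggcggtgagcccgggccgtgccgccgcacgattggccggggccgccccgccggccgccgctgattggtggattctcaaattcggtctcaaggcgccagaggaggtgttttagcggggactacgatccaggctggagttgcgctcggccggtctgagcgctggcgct
PCNA, chr20:5126573-5126872, minus strand: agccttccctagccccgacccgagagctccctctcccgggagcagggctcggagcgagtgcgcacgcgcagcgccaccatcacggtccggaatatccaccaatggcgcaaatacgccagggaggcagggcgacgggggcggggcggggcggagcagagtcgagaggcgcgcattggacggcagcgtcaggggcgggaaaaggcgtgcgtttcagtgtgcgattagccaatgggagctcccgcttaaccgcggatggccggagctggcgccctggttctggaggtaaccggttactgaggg
Counted from the annotated start, the E2F2 letters begin at base -42 and those of CDC6 at base 7, and in MCM2 a pair of overlapping matches reads the same on both strands. Of the genes printed, E2F2, CDC6 and MCM2 with the strict letters and PCNA without them fell in A549 when TGFβ was added to siKLF10. E2F7, whose window holds the shorter form once, rose. Genes with and without the letters were not compared as groups.

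In Panc1 the 46 genes moved little with TGFβ and mostly upward. Against siCont, 13 rose, 2 fell and 31 were not called, with a median log2 fold change of 0.16. Of all tested genes 14% rose and 15.1% fell. The 13 that rose became 7 without siCont C, a share near that of all genes, and 8 without TGFβ A or TGFβ C. After siKLF10 the TGFβ effect was called in more of them, with 28 that rose, 1 that fell and a median of 0.23, against 22.6% and 22.3% of all genes. Upper quartile scaling moved the split over all genes from 2993 higher and 2950 lower to 2373 and 3552, and that of the interaction from 338 and 246 to 270 and 298. The interaction, the TGFβ effect after siKLF10 minus that after siCont, was nevertheless called for only 1 of the 46 (RRM2), beside 2.56% of all genes called higher and 1.86% lower, so a larger TGFβ effect after siKLF10 was not established gene by gene in Panc1. The count was 3 with DESeq2, 3 without siCont C, 5 without siKLF10 with TGFβ A, and 0 without any 1 of 8 other libraries (siCont A or B, TGFβ A or B, siKLF10 A or C, siKLF10 with TGFβ B or C). Over the 46 genes, 34 had a positive interaction estimate, with a median of 0.11. The 12 genes that rose in both TGFβ comparisons of Panc1 were 12 of the 13 and 12 of the 28. They were MCM10, ORC1, ORC6, CCNE1, CCNE2, E2F7, FEN1, RRM1, CHAF1B, UHRF1, CLSPN and DTL. Of these, the call against siCont was lost for ORC1 in 10 and for FEN1 in 5 of 12 alternatives, which were other scalings, filters, fits or DESeq2, or 1 library left out. The calls of CCNE1, E2F7, CLSPN and DTL held in all 12 in both comparisons.

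In A549 most of the set fell with TGFβ after siKLF10, whereas after siCont neither direction held under all the alternatives. TGFβ against siCont raised 7 and lowered 12, with a median of -0.06, beside 24.2% and 23.5% of all genes. The split of 7 and 12 was 6 and 5 with DESeq2, 6 and 4 without siCont A, 7 and 7 without siCont B, 7 and 6 without TGFβ A and 6 and 5 without TGFβ B. With the libraries labelled siKLF10 as the base, TGFβ raised 6 and lowered 32, with a median of -0.45, beside 26.5% and 26.8%. Here 15 of the 46 had a called interaction and all 15 were negative, with a median over the 46 of -0.31, beside 3.26% of all genes called higher and 3.23% lower. That count rested on few libraries: leaving out any 1 of the 8 A549 libraries gave 1 to 24 called, and DESeq2 called 9. The lowest counts were 1 without siCont B or siKLF10 A and 2 without siCont A or TGFβ A, there were 3 without TGFβ B, and the highest was 24 without siKLF10 with TGFβ A. The libraries with siKLF10 and TGFβ, at 10276378 and 19070551 counts, were also less alike than the other A549 pairs. Their chi-square per degree of freedom, over genes averaging at least 20 counts, was 11.4, against 2.22 to 2.97. Panc1 pairs ran from 2.06 to 12.5. By size the called interactions were led by TK1 (-0.81), CDC45 (-0.79), ORC1 (-0.63), GINS2 (-0.58) and MCM5 (-0.57), genes of salvage, licensing and the helicase.

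**Figure D1:**
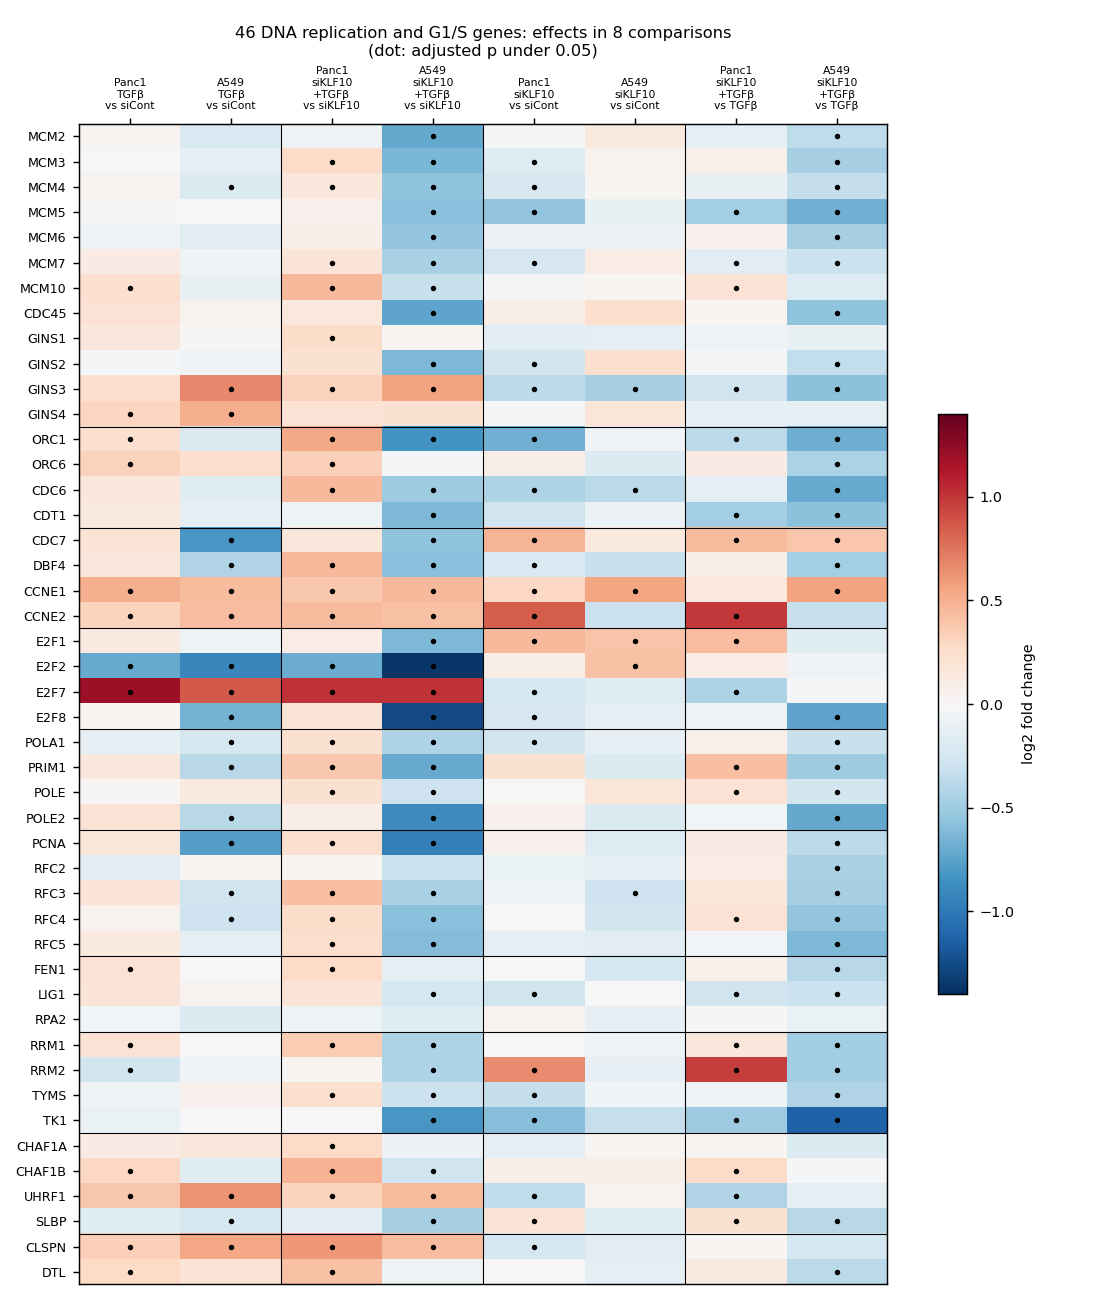
Log2 fold change of each of the 46 genes (rows, ordered and separated by role) in the 4 pairwise comparisons of each line (columns), on a scale from -1.4 (blue) to 1.4 (red); a dot marks an adjusted p under 0.05. The columns of siKLF10 with TGFβ are mostly blue in A549, with 32 of 46 genes that fell in each, whereas Panc1 has 28 that rose against siKLF10.

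The siRNA gave a divided picture in Panc1. Against siCont, siKLF10 raised 6 of the 46 and lowered 17, with a median of -0.07, beside 17.3% and 18.3% of all genes. Under TGFβ, siKLF10 raised 11 and lowered 9, with a median of 0.05. These are 23.9% and 19.6% of the 46, beside 21.1% and 20.6% of all genes. The split of 11 and 9 was 6 and 6 without TGFβ B, 7 and 7 without TGFβ C, 7 and 6 without siKLF10 with TGFβ B and 8 and 6 without siKLF10 with TGFβ C. The 5 genes that rose in both (5 of 6 and 5 of 11) were CDC7, CCNE2, E2F1, RRM2 and SLBP, and the 8 that fell in both (8 of 17 and 8 of 9) were MCM5, MCM7, GINS3, ORC1, E2F7, LIG1, TK1 and UHRF1.

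In A549 the libraries labelled siKLF10 differed little from siCont in these genes, and KLF10 was not lower in them. Of the 46, 3 rose and 3 fell, with a median of -0.11, which ran from -0.15 to -0.01 over the alternatives, beside 9.57% and 9.96% of all genes. The count of 6 was 12 when only the compared groups were fitted, and 2 to 4 when 1 library was left out: 2 without siCont A or siKLF10 A and 3 without siCont B. Under TGFβ, 2 rose and 32 fell, with a median of -0.38, beside 14.4% and 13.9% of all genes. The 32 genes that fell here are a larger share of the 46 (69.6%) than the background share. KLF10 was lower in this comparison, and the part of its level in the counts of either comparison was not tested.

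**Figure D2:**
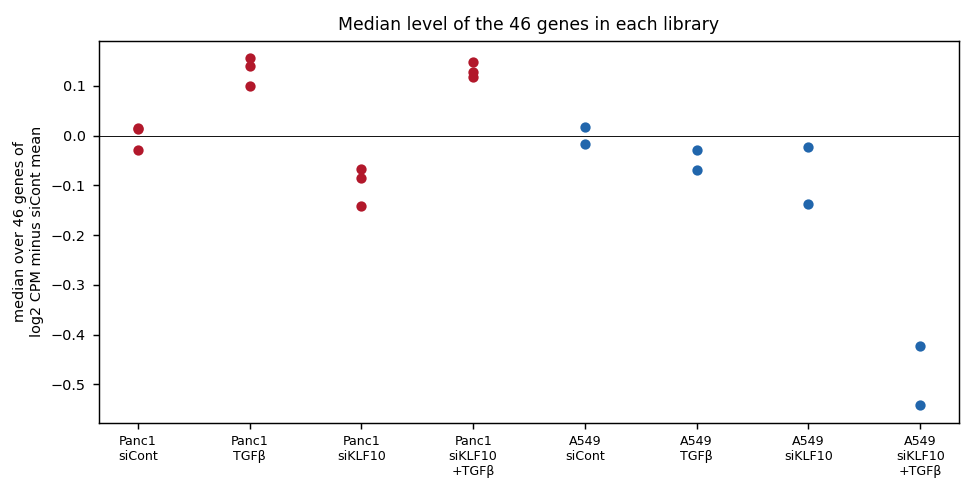
Median over the 46 genes of the log2 CPM of a library minus the siCont mean of its line (y axis) for each library (points) by group (x axis). The A549 libraries with siKLF10 and TGFβ lie at -0.42 and -0.54, below the other 6 A549 libraries (-0.14 to 0.02), and the Panc1 libraries with TGFβ lie at 0.10 to 0.16, above those without it.

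E2F7 and E2F2 had the largest rise and the largest fall of the 46 with TGFβ in each line, after either siRNA. E2F7, a repressor of E2F targets, measured 36.7, 41.0 and 41.1 CPM in the siCont libraries A, B and C of Panc1, and 90.4, 89.4 and 91.8 CPM with TGFβ, and 30.8, 34.4 and 34.9 CPM with siKLF10 and 65.0, 68.9 and 68.3 CPM with both. Every Panc1 library with TGFβ was above every one without it. The TGFβ effect was 1.19 ± 0.07 (adjusted p = 4.95e-12), a 2.29-fold rise, and 1.01 ± 0.07 (adjusted p = 1.03e-10) after siKLF10. In A549 E2F7 went from 29.3 and 29.3 CPM with siCont to 51.7 and 54.8 CPM with TGFβ, and from 27.7 and 23.9 CPM with siKLF10 to 53.2 and 51.8 CPM with both, rises of 0.86 ± 0.10 (adjusted p = 3.4e-07) and 1.01 ± 0.10 (adjusted p = 3.01e-08). In Panc1 siKLF10 lowered E2F7 under TGFβ, by 0.43 (adjusted p = 2.74e-05), whereas the A549 difference under TGFβ was -0.02 ± 0.10 (adjusted p = 0.904).

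E2F2, an activator of S phase genes, went the other way and fell with TGFβ in all 4 settings (2 lines, each with siCont or siKLF10). It measured 11.5, 10.9 and 15.3 CPM in Panc1 siCont and 7.42, 9.03 and 6.80 CPM with TGFβ, 12.9, 14.4 and 13.1 CPM with siKLF10 and 9.03, 8.57 and 7.20 CPM with both. The falls were -0.71 ± 0.14 (adjusted p = 0.000478) and -0.70 ± 0.14 (adjusted p = 0.000351), and the groups did not overlap. In A549 it measured 17.9 and 16.6 CPM with siCont, 8.65 and 9.95 CPM once TGFβ was added, and 24.8 and 20.8 CPM with siKLF10 and 9.82 and 8.29 CPM with both. These are log2 changes of -0.91 ± 0.16 (adjusted p = 5.46e-05) and -1.37 ± 0.14 (adjusted p = 5.6e-08). E2F2 also rose in the A549 libraries labelled siKLF10 against siCont, by 0.41 ± 0.13 (adjusted p = 0.035). That call was lost without siCont A (0.47), siCont B (0.36) or siKLF10 A (0.26).

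E2F8, the other repressor of the set, did not follow E2F7. In A549 it measured 19.0 and 20.1 CPM with siCont, 12.9 and 11.7 CPM with TGFβ, 19.4 and 16.1 CPM with siKLF10 and 7.70 and 7.26 CPM with both. Both TGFβ groups lay below both groups without it, and the fall was -0.66 ± 0.14 (adjusted p = 0.000584) after siCont and -1.27 ± 0.15 (adjusted p = 2.45e-07) after siKLF10. It also fell with siKLF10 under TGFβ, by 0.73 (adjusted p = 0.00148). In Panc1 E2F8 measured 44.0, 37.8 and 41.5 CPM with siCont, 43.8, 39.2 and 42.5 CPM once TGFβ was added, and 33.4, 36.1 and 35.6 CPM with siKLF10 and 36.8, 41.3 and 41.7 CPM with both. Its TGFβ effects, 0.02 and 0.18, were not called. siKLF10 without TGFβ lowered it there, -0.23 ± 0.08 (adjusted p = 0.0298), a call lost with upper quartile scaling and without siCont A (-0.18), siCont C (-0.22), siKLF10 A (-0.20) or siKLF10 C (-0.24). E2F1, the founding activator of the family, rose with siKLF10 in Panc1, by 0.45 ± 0.10 (adjusted p = 0.000825) without TGFβ and 0.43 ± 0.09 (adjusted p = 0.000966) with it. In A549 E2F1 rose in the libraries labelled siKLF10 by 0.40 ± 0.09 (adjusted p = 0.00443), a call lost without siCont B (0.39) or siKLF10 A (0.29), and fell when TGFβ was added to them, by 0.63 (adjusted p = 7.77e-06). TGFβ alone left E2F1 uncalled in both lines, at 0.12 in Panc1 and -0.07 in A549.

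Among the kinases and cyclins, the cyclin E genes rose with TGFβ in both lines whatever the siRNA, though the A549 calls of CCNE2 were lost under several alternatives. CCNE1, which drives CDK2 at the G1/S boundary, measured 30.9, 32.8 and 29.9 CPM in Panc1 siCont, 42.7, 46.8 and 44.0 CPM with TGFβ, 39.2, 35.1 and 39.7 CPM with siKLF10 and 53.4, 49.4 and 45.0 CPM with both. In A549 the values were 23.9 and 23.4 CPM, 32.1 and 32.2 CPM, 35.8 and 33.4 CPM and 51.2 and 44.5 CPM in the same order. In both lines siCont was the lowest group and siKLF10 with TGFβ the highest by mean. In Panc1 the libraries of the latter overlapped those of TGFβ. The TGFβ effects were 0.51 ± 0.08 (adjusted p = 3.23e-05) and 0.38 ± 0.08 (adjusted p = 0.000545) in Panc1 and 0.44 ± 0.11 (adjusted p = 0.0026) and 0.46 ± 0.10 (adjusted p = 0.000833) in A549, after siCont and siKLF10. CCNE1 also rose with siKLF10 in 3 of 4 comparisons, by 0.29 in Panc1 without TGFβ and by 0.55 and 0.57 in A549 without and with it. The Panc1 difference under TGFβ was 0.15 ± 0.08 (adjusted p = 0.129).

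CCNE2, the second E cyclin, separated the lines in its answer to the siRNA. It measured 18.9, 21.1 and 21.2 CPM in Panc1 siCont and 34.4, 39.8 and 36.5 CPM with siKLF10, and 27.5, 23.9 and 24.6 CPM with TGFβ and 44.0, 53.6 and 53.5 CPM with both. All siKLF10 libraries lay above all siCont and TGFβ libraries, with rises of 0.85 ± 0.10 (adjusted p = 4.61e-07) and 0.99 ± 0.09 (adjusted p = 2.25e-08). In A549 it measured 10.5 and 13.3 CPM with siCont, 10.2 and 8.79 CPM with siKLF10, 14.2 and 18.1 CPM with TGFβ and 13.3 and 12.3 CPM with both. The siKLF10 differences of -0.30 ± 0.17 (adjusted p = 0.232) and -0.33 ± 0.16 (adjusted p = 0.13) were not called. The TGFβ rises of CCNE2 were smaller, at 0.31 and 0.44 in Panc1 and 0.43 and 0.41 in A549. The call in Panc1 against siCont was lost without siCont A (0.26) or TGFβ A (0.25). In A549 the call against siCont was lost in 4 of 10 alternatives, with siCont A (0.27) or TGFβ B (0.26) left out among them. That against siKLF10 was lost in 7 of 10, with siKLF10 A (0.54), siKLF10 B (0.31) or siKLF10 with TGFβ A (0.36) left out among them. Exons of CCNE2 overlap those of INTS8 on the other strand. The kit was directional, but how strand entered the counting is not stated in the labels, so its counts are uncertain. INTS8 moved the other way with siKLF10 in Panc1, by -0.36 without TGFβ and -0.37 with it, but the same way with TGFβ there, by 0.25 (adjusted p = 0.00788) after siCont and 0.23 (adjusted p = 0.00996) after siKLF10. In A549 INTS8 fell with siKLF10, by 0.27 (adjusted p = 0.0477) and, under TGFβ, by 0.33 (adjusted p = 0.0105). Its part in the CCNE2 counts was not tested.

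CDC7 and DBF4, the kinase and its activator, were set apart by line. CDC7 measured 25.8 and 26.6 CPM in A549 siCont against 14.5 and 15.3 CPM with TGFβ, and 28.9 and 28.6 CPM with siKLF10 and 17.2 and 21.2 CPM with both. These are log2 changes of -0.82 ± 0.13 (adjusted p = 2.44e-05) and -0.56 ± 0.12 (adjusted p = 0.000509). In Panc1 it measured 96.1, 97.2 and 87.5 CPM with siCont, 104, 105 and 112 CPM with TGFβ, 127, 138 and 126 CPM with siKLF10 and 128, 146 and 162 CPM with both. There the TGFβ effects of 0.19 and 0.15 were not called, but siKLF10 raised it by 0.48 ± 0.08 (adjusted p = 3.77e-05) and, under TGFβ, by 0.44 ± 0.08 (adjusted p = 6.87e-05). CDC7 was the 1 gene of the 46 that rose with siKLF10 under TGFβ in both lines, by 0.39 in A549. That A549 call was lost in 5 of 10 alternatives. They were DESeq2, the fit of only the groups compared, and the fits without TGFβ A (0.35), TGFβ B (0.43) or siKLF10 with TGFβ B (0.22). DBF4 fell with TGFβ in A549, by 0.42 after siCont and 0.59 after siKLF10, and rose in Panc1 after siKLF10, by 0.45 ± 0.08 (adjusted p = 6.93e-05). The A549 call after siCont was lost with DESeq2 and without siCont A (-0.40), siCont B (-0.42) or TGFβ A (-0.27). Exons of DBF4 overlap those of SLC25A40, which also fell with TGFβ in A549, by 0.37 (adjusted p = 0.0138) after siCont and 0.59 (adjusted p = 0.000333) after siKLF10, so the DBF4 falls are uncertain.

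**Figure D3:**
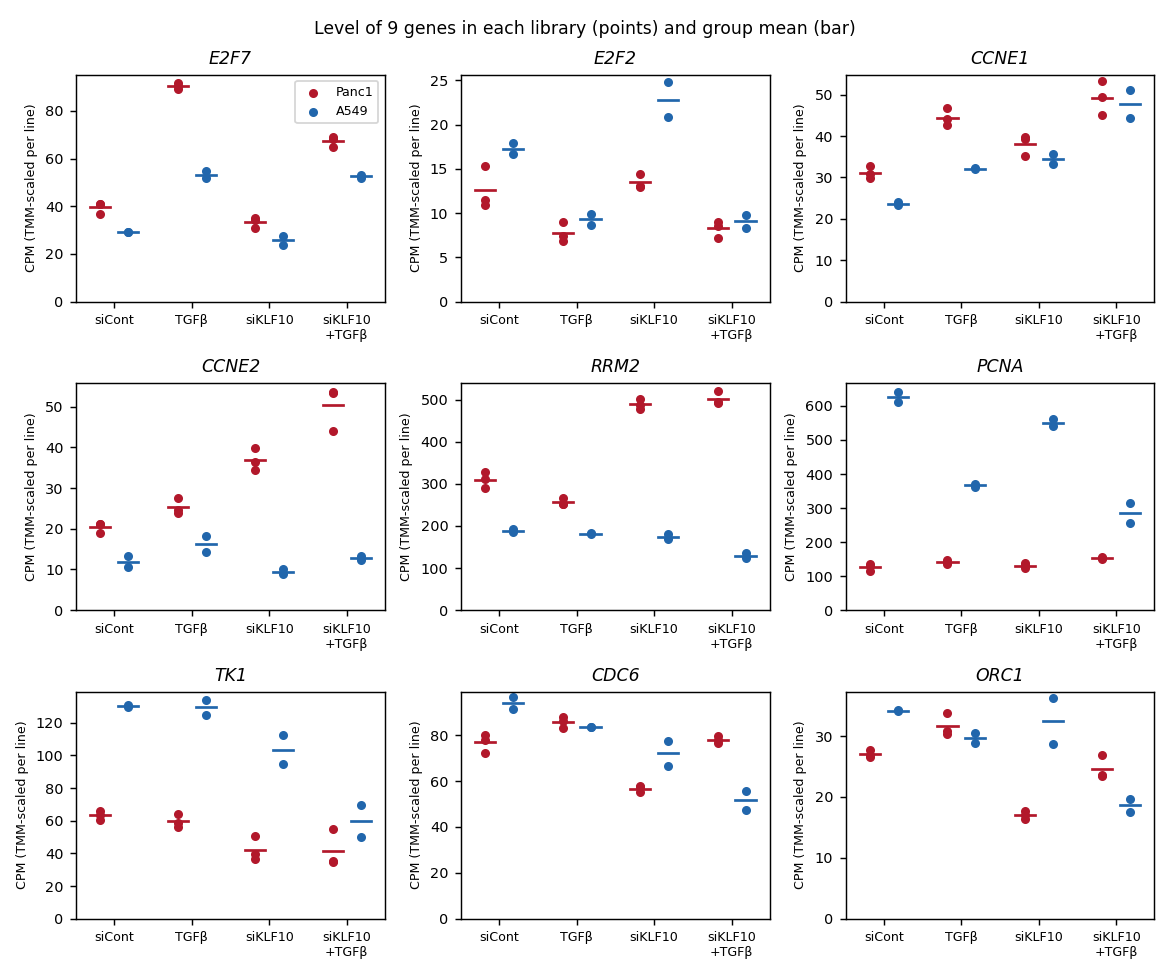
CPM (y axis, from 0, TMM-scaled within a line) of 9 genes in every library of Panc1 (red) and A549 (blue) by group (x axis), with bars at group means. RRM2 and CCNE2 are higher in all Panc1 siKLF10 libraries than in the other Panc1 libraries, and PCNA is lower with TGFβ in all A549 libraries.

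The means of all 4 origin licensing genes were lowest in A549 with siKLF10 and TGFβ, by 28.9 against 29.1 CPM for ORC6, and 3 of the 4 were lower with siKLF10 in Panc1 in at least 1 comparison. ORC1, the largest subunit of the origin recognition complex, measured 27.0, 26.6 and 27.8 CPM in Panc1 siCont and 17.7, 16.4 and 17.0 CPM with siKLF10, 30.8, 33.7 and 30.4 CPM with TGFβ and 23.6, 23.4 and 26.9 CPM with both. The siKLF10 groups lay below their controls in every library, by a log2 change of -0.67 ± 0.09 (adjusted p = 3.67e-06) and -0.36 ± 0.08 (adjusted p = 0.00137), and TGFβ raised ORC1 after siKLF10 by 0.53 ± 0.09 (adjusted p = 4.27e-05). In A549 it measured 34.0 and 34.2 CPM with siCont, 30.5 and 28.8 CPM with TGFβ, 36.3 and 28.8 CPM with siKLF10 and 19.6 and 17.6 CPM with both. The last group was the lowest, -0.69 ± 0.13 (adjusted p = 0.000311) against TGFβ and -0.83 ± 0.12 (adjusted p = 6.86e-06) against siKLF10.

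CDC6, which loads the helicase with CDT1, measured 80.3, 78.0 and 72.3 CPM in Panc1 siCont, 55.1, 57.9 and 57.3 CPM with siKLF10, 88.0, 86.3 and 83.3 CPM with TGFβ and 76.7, 77.8 and 79.8 CPM with both. The siKLF10 group without TGFβ stood below the other 3 groups, by a log2 change of -0.44 ± 0.06 (adjusted p = 1.49e-05) against siCont, and TGFβ raised CDC6 there by 0.46 ± 0.06 (adjusted p = 3.82e-06). In A549 CDC6 measured 96.6 and 91.5 CPM with siCont, 77.5 and 66.7 CPM with siKLF10, 83.4 and 83.6 CPM with TGFβ and 55.8 and 47.5 CPM with both. These are log2 changes of -0.70 ± 0.10 (adjusted p = 1.53e-05) against TGFβ and -0.50 ± 0.10 (adjusted p = 0.000216) against siKLF10. The fall against siCont without TGFβ, -0.38 ± 0.10 (adjusted p = 0.00768), was lost without siCont A (-0.34) or siKLF10 B (-0.27). CDT1 fell with siKLF10 under TGFβ in both lines, by a log2 change of -0.48 ± 0.11 (adjusted p = 0.0017) in Panc1 and -0.57 ± 0.11 (adjusted p = 0.000342) in A549, and was not called with TGFβ alone in either (0.13 and -0.14). ORC6 rose with TGFβ in Panc1 after both siRNAs (0.32 and 0.33) and fell in A549 with siKLF10 under TGFβ (-0.44).

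Of the 12 helicase genes (the MCM2 to MCM7 ring, MCM10, CDC45 and the GINS subunits), 6 rose in Panc1 when TGFβ was added to siKLF10 and none fell, with a range of -0.07 to 0.45. In A549 1 of the 12, GINS3, rose in that comparison and 9 fell, with a range of -0.74 to 0.56. Over all genes 22.6% rose and 22.3% fell in this comparison of Panc1, and 26.5% and 26.8% in A549. With siKLF10 under TGFβ, 9 of the 12 fell in A549, with all 12 estimates below 0, beside 13.9% of all genes that fell. In Panc1 1 rose (MCM10) and 3 fell (MCM5, MCM7 and GINS3), beside 21.1% and 20.6% of all genes. The falls in Panc1 are thus a share near that of all genes. Without TGFβ, siKLF10 lowered 6 of the 12 in Panc1 (MCM3, MCM4, MCM5, MCM7, GINS2 and GINS3), beside 18.3% of all genes. Of these calls, that of GINS2 was lost in 4 and that of MCM3 in 1 of 12 alternatives. MCM7 exons overlap those of AP4M1 and MCM2 exons those of TPRA1, so both are uncertain. TPRA1 was called the same way as MCM2 in both comparisons in which MCM2 fell, and AP4M1 the same way as MCM7 in 2 of the 5 in which MCM7 was called and the other way in 1.

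MCM2 measured 146 and 137 CPM in A549 siCont, 122 and 122 CPM with TGFβ, 164 and 148 CPM with siKLF10 and 105 and 87.0 CPM with both. The last group was the lowest, -0.71 ± 0.09 (adjusted p = 9.96e-07) against siKLF10 and -0.36 ± 0.09 (adjusted p = 0.00623) against TGFβ. In Panc1 MCM2 measured 137, 152 and 151 CPM with siCont, 141, 153 and 159.5 CPM with TGFβ, 159.9, 131 and 144 CPM with siKLF10 and 151, 132 and 129 CPM with both. Its groups overlapped and no comparison was called. CDC45, which joins the ring to activate it, measured 32.3 and 30.8 CPM in A549 siCont, 33.5 and 31.8 CPM with TGFβ, 36.6 and 37.5 CPM with siKLF10 and 25.2 and 19.8 CPM with both. Its fall with TGFβ was seen after siKLF10, -0.74 ± 0.12 (adjusted p = 1.84e-05), and not after siCont, 0.05 ± 0.12 (adjusted p = 0.753), and the interaction was -0.79 ± 0.17 (adjusted p = 0.00537). The interaction call was lost without TGFβ A (-0.75). In Panc1 CDC45 measured 25.6, 23.7 and 22.1 CPM with siCont, 24.8, 27.6 and 29.6 CPM with TGFβ, 25.5, 24.9 and 25.0 CPM with siKLF10 and 27.8, 30.4 and 25.3 CPM with both. It was not called. Its groups overlapped.

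GINS3 was the 1 member that fell with siKLF10 in all 4 settings. It measured 16.7 ± 0.936 CPM in Panc1 siCont and 12.9 ± 0.619 CPM with siKLF10, and 19.7 ± 1.60 CPM with TGFβ and 16.3 ± 1.36 CPM with both (SD, n = 3). The falls were -0.37 ± 0.10 (adjusted p = 0.0076) and -0.28 ± 0.10 (adjusted p = 0.0249) in Panc1 and -0.46 ± 0.12 (adjusted p = 0.00891) and -0.58 ± 0.11 (adjusted p = 0.000413) in A549. The second Panc1 call was lost without TGFβ B (-0.26), TGFβ C (-0.24), siKLF10 with TGFβ A (-0.22) or siKLF10 with TGFβ B (-0.29), and the first A549 call without siCont A (-0.42) or siKLF10 A (-0.39). TGFβ raised GINS3 in A549 after both siRNAs, by 0.68 and 0.56. After siKLF10 9 of the 12 helicase genes fell there. MCM5 fell with siKLF10 in Panc1 by a log2 change of -0.55 ± 0.09 (adjusted p = 4.73e-05) and under TGFβ by 0.47, and under TGFβ in A549 by 0.68. GINS4, another GINS subunit, rose with TGFβ after siCont in both lines, by 0.31 in Panc1 and 0.51 in A549, and MCM3 fell by 0.64 in A549 when TGFβ was added to siKLF10.

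The 4 polymerase and primase genes fell together in A549 with siKLF10 and TGFβ, 4 of 4 against TGFβ and 4 of 4 against siKLF10. Over all genes 13.9% and 26.8% fell in these comparisons. Against TGFβ the calls of POLA1 and POLE were each lost in 4 of 10 alternatives, whereas those against siKLF10 held in all 10. POLE2, a subunit of the leading-strand polymerase, measured 16.7 and 16.4 CPM in A549 siCont, 12.4 and 13.1 CPM with TGFβ, 15.5 and 12.8 CPM with siKLF10 and 8.51 and 7.21 CPM with both. Each TGFβ group lay below its own base in every library, with effects of -0.38 ± 0.15 (adjusted p = 0.0363) and -0.89 ± 0.15 (adjusted p = 4.67e-05). The first call was lost with DESeq2 and without siCont A (-0.36), siCont B (-0.39), TGFβ A (-0.34) or TGFβ B (-0.42). In Panc1 POLE2 measured 29.8, 30.2 and 25.8 CPM with siCont, 30.3, 30.9 and 37.1 CPM with TGFβ, 29.0, 31.6 and 28.9 CPM with siKLF10 and 32.4, 31.9 and 31.5 CPM with both. None of its Panc1 comparisons was called. PRIM1, the catalytic subunit of primase, whose exons overlap those of HSD17B6, rose with siKLF10 under TGFβ in Panc1 by 0.43 ± 0.08 (adjusted p = 0.000323) and fell in A549 by a log2 change of -0.50 ± 0.12 (adjusted p = 0.00323), the latter call being lost without TGFβ A (-0.41). POLE, the catalytic subunit of the leading-strand polymerase, did the same at smaller size, with 0.20 and -0.26, and POLA1 rose in Panc1 (0.21) and fell in A549 (-0.44) when TGFβ was added to siKLF10. That Panc1 call of POLA1 was lost in 9 of 12 alternatives.

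PCNA, the sliding clamp, had the second-largest difference between lines in its TGFβ effect. In A549 it measured 641 and 611 CPM with siCont, 363 and 372 CPM once TGFβ was added, and 560.3 and 541 CPM with siKLF10 and 314 and 255 CPM with both. Each TGFβ group lay below its base, 1.70-fold lower after siCont, -0.77 ± 0.09 (adjusted p = 1.33e-07), and 1.94-fold lower after siKLF10, -0.95 ± 0.09 (adjusted p = 3.99e-09). In Panc1 PCNA measured 135, 128 and 114 CPM with siCont, 134, 141 and 148 CPM with TGFβ, 138, 123 and 132 CPM with siKLF10 and 150, 154 and 155 CPM with both. It rose after siKLF10, by 0.23 ± 0.07 (adjusted p = 0.00864). The clamp loader subunits RFC2 to RFC5 all fell in A549 with siKLF10 under TGFβ, by 0.45, 0.47, 0.55 and 0.63. In Panc1, RFC3, RFC4 and RFC5 rose when TGFβ was added to siKLF10, by 0.42, 0.26 and 0.24. RFC4 exons overlap those of EIF4A2, which was called the same way as RFC4 in 3 of the 8 pairwise comparisons and the other way in 1.

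The nucleotide supply genes did not move as a group in Panc1. RRM2, the subunit that limits the activity of ribonucleotide reductase, measured 328, 311 and 291 CPM with siCont, 478, 502 and 486 CPM with siKLF10, 253, 252 and 266 CPM with TGFβ and 491, 496 and 519.6 CPM with both. Every siKLF10 library lay above every library of the other 2 groups, with rises of 0.66 ± 0.06 (adjusted p = 1.11e-08) and, under TGFβ, 0.97 ± 0.06 (adjusted p = 2.52e-11), which are 1.58-fold and 1.95-fold. TGFβ lowered RRM2 after siCont, by a log2 change of -0.27 ± 0.06 (adjusted p = 0.000877), and not after siKLF10, 0.04 ± 0.06 (adjusted p = 0.616), which gave the 1 called interaction of Panc1, 0.31 ± 0.08 (adjusted p = 0.0304). That interaction call was lost without siCont A (0.27), siCont B (0.31), TGFβ A (0.30), TGFβ B (0.29), siKLF10 A (0.29), siKLF10 C (0.30), siKLF10 with TGFβ B (0.32) or siKLF10 with TGFβ C (0.28). In A549 RRM2 measured 192 and 186 CPM with siCont, 179.8 and 169 CPM with siKLF10, 184 and 179.8 CPM with TGFβ and 123 and 135 CPM with both. Only the last group was lower, by a log2 change of -0.49 ± 0.08 (adjusted p = 7.79e-05) against TGFβ.

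TK1, the thymidine salvage kinase, went the other way from RRM2 in Panc1. It measured 65.9, 60.5 and 63.8 CPM with siCont, 50.6, 36.3 and 39.7 CPM with siKLF10, 56.2, 58.8 and 63.9 CPM with TGFβ and 54.8, 34.8 and 35.6 CPM with both, with library A highest in each of the siKLF10 groups. It fell with siKLF10 by a log2 change of -0.59 ± 0.16 (adjusted p = 0.0158) and under TGFβ by a log2 change of -0.51 ± 0.16 (adjusted p = 0.0286). The first call was lost without siKLF10 B (-0.49) and the second without TGFβ B (-0.52), TGFβ C (-0.45), siKLF10 with TGFβ B (-0.39) or siKLF10 with TGFβ C (-0.41). In A549 TK1 measured 129 and 131 CPM with siCont, 125 and 134 CPM with TGFβ, 112 and 94.8 CPM with siKLF10 and 69.8 and 49.7 CPM with both. The group with both was 2.19-fold lower than TGFβ, -1.13 ± 0.14 (adjusted p = 6.48e-05), which was the largest fall of the 46 in that comparison. RRM1, the larger reductase subunit, rose with TGFβ in Panc1 (0.20 after siCont and 0.36 after siKLF10) and fell in A549 after siKLF10 (-0.43). TYMS, thymidylate synthase, fell with siKLF10 in Panc1 (-0.33) and under TGFβ in A549 (-0.42). Its exons overlap those of ENOSF1 on the other strand, so its counts are uncertain. ENOSF1 was called the same way in 2 of the 4 comparisons in which TYMS was called and the other way in 2.

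Of the chromatin and checkpoint genes, UHRF1, which brings DNA methyltransferase to new DNA, rose with TGFβ in all 4 settings, by 0.38 and 0.32 in Panc1 and 0.63 and 0.44 in A549. CLSPN, the checkpoint adaptor claspin, did so too, by 0.34 and 0.61 in Panc1 and 0.54 and 0.44 in A549. The UHRF1 calls were lost without siCont A (0.26) or TGFβ A (0.32) in Panc1 against siCont, without siKLF10 B (0.28), siKLF10 C (0.29), siKLF10 with TGFβ A (0.25) or siKLF10 with TGFβ B (0.32) in Panc1 against siKLF10 and without siKLF10 B (0.34) in A549 against siKLF10, and that of CLSPN without siKLF10 A (0.32) in the last. In Panc1 UHRF1 fell with siKLF10, by 0.35 without TGFβ and 0.42 with it. SLBP, which binds the end of histone mRNAs, rose with siKLF10 in Panc1 (0.19, and 0.21 under TGFβ) and fell in A549 under TGFβ (-0.39). The chromatin assembly subunits CHAF1A and CHAF1B rose in Panc1 when TGFβ was added to siKLF10 (0.27 and 0.48). DTL, which marks CDT1 for destruction, rose with TGFβ in Panc1 (0.28 and 0.42).

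On the lagging strand, FEN1, the flap nuclease, rose with TGFβ in Panc1 (0.21 and 0.27) and fell in A549 with siKLF10 under TGFβ (-0.39). Its exons overlap those of FADS2 on the same strand. LIG1, the ligase, fell with siKLF10 in Panc1 (-0.27, and -0.28 under TGFβ) and under TGFβ in A549 (-0.30). RPA2, a subunit of the single-strand binding complex, was called in none of the 8 pairwise comparisons, with estimates from -0.19 to 0.05.

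**Figure D4:**
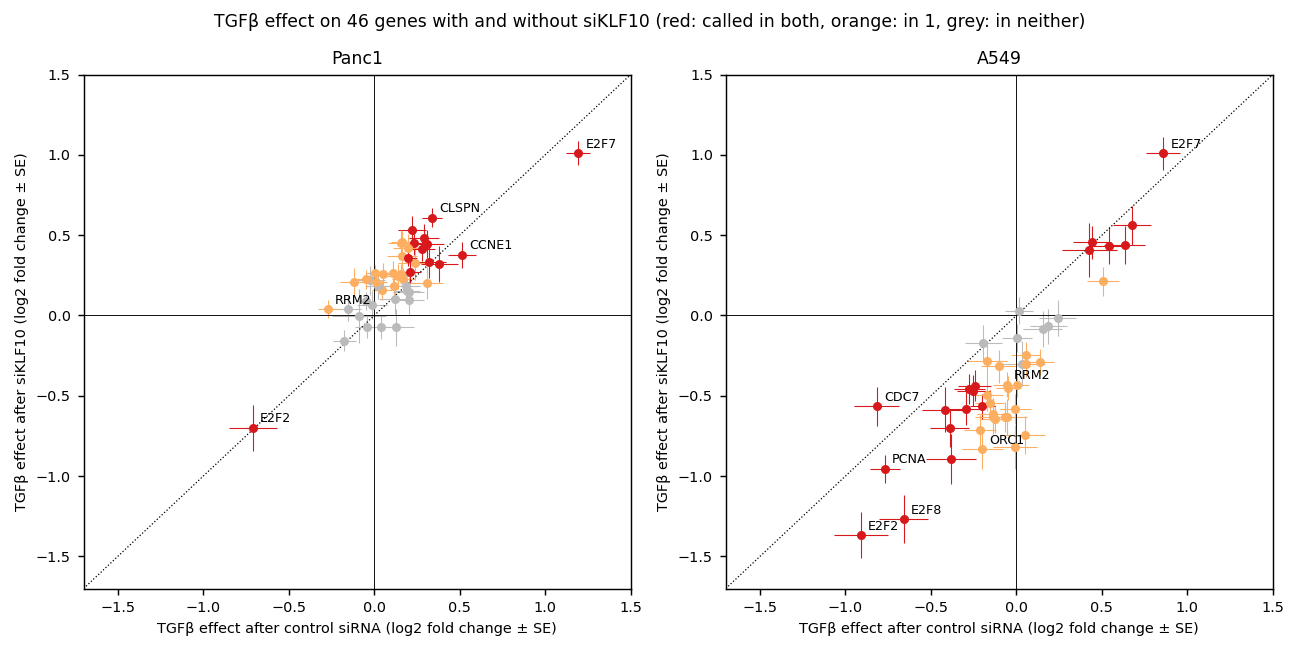
TGFβ effect after control siRNA (x axis) against TGFβ effect after siKLF10 (y axis), log2 fold change ± SE, for the 46 genes in Panc1 and A549, with the line of equality dotted; red points were called in both, orange in 1 and grey in neither. In A549 41 of 46 genes have a lower effect after siKLF10 than after siCont, whereas in Panc1 34 of 46 have a higher one.

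The difference of an effect between lines (Panc1 minus A549) was tested in 1 model over all 20 libraries. The TGFβ effect after siCont was higher in Panc1 for 18 of the 46 and lower for none, with a median difference of 0.23, beside 17.1% and 13.8% of all genes. CDC7 had the largest difference, 1.09 ± 0.16 (adjusted p = 1.09e-06), followed by PCNA with 1.02 ± 0.11 (adjusted p = 5.25e-09) and E2F8 with 0.76 ± 0.16 (adjusted p = 0.000322). Without a filter on low counts the call was made for 10, of which 9 were higher. The split over all genes also moved with the processing: 2581 higher and 2082 lower, against 1922 and 2597 without the filter and 2001 and 2506 with upper quartile scaling, under which 12 of the 46 were higher and 1 lower. Without A549 siCont A, 12 were higher and none lower.

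The siKLF10 effect without TGFβ differed for 8 of the 46, 4 in each direction, beside 8.59% higher in Panc1 and 8.65% lower over all genes. CCNE2 (1.18 ± 0.20, adjusted p = 5.31e-05), RRM2 (0.80 ± 0.10, adjusted p = 9.46e-07) and PRIM1 (0.43 ± 0.14, adjusted p = 0.0339) were higher in Panc1, and ORC1 (-0.60 ± 0.15, adjusted p = 0.00395) and GINS2 (-0.46 ± 0.14, adjusted p = 0.023) lower. The call was lost for PRIM1 in 8, for GINS2 in 4 and for ORC1 in 1 of 15 alternatives, and held in all 15 for CCNE2 and RRM2. The count was 3 to 9 with 1 library left out, 4 without A549 siCont A or siKLF10 A and 3 without A549 siCont B. The siKLF10 effect under TGFβ was higher in Panc1 for 23 of the 46 and lower for 2, CCNE1 and E2F7, with a median of 0.38, beside 7.52% and 12.3% of all genes. RRM2 (1.42 ± 0.10, adjusted p = 3.01e-12) and CCNE2 (1.27 ± 0.18, adjusted p = 4.18e-06) led, and the fall of KLF10 itself with siKLF10 under TGFβ was also deeper in Panc1, with a difference of -0.69 ± 0.10 (adjusted p = 3.33e-06). With siKLF10 under TGFβ, 6 genes rose in Panc1 and fell in A549 (13%, beside 1.29% of the genes tested in both lines). They were PRIM1, POLE, RFC4, RRM1, RRM2 and SLBP. Their Panc1 call was lost for RRM1 in 5, RFC4 in 4, SLBP in 2 and POLE in 1 of 12 alternatives. Their A549 call was lost for POLE in 4, SLBP in 2 and PRIM1 in 1 of 10. The 7 that fell in both (15.2%, beside 6.31%) were MCM5, MCM7, GINS3, ORC1, CDT1, LIG1 and TK1. Their Panc1 call was lost for GINS3 and TK1 in 5, MCM7 in 4 and LIG1 in 2 of 12, and their A549 call for LIG1 in 2 and MCM7 in 1 of 10. When TGFβ was added to siKLF10, 17 of the 46 rose in Panc1 and fell in A549, 17 of the 28 that rose and 17 of the 32 that fell. They are 37% of the 46, beside 3.95% of the 12510 genes tested in both lines. The difference itself was not fitted for that comparison. Among the 17, the calls lost most often were POLA1 in 9 and MCM4 in 6 of 12 alternatives in Panc1, and CHAF1B in 5 of 10 in A549.

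**Figure D5:**
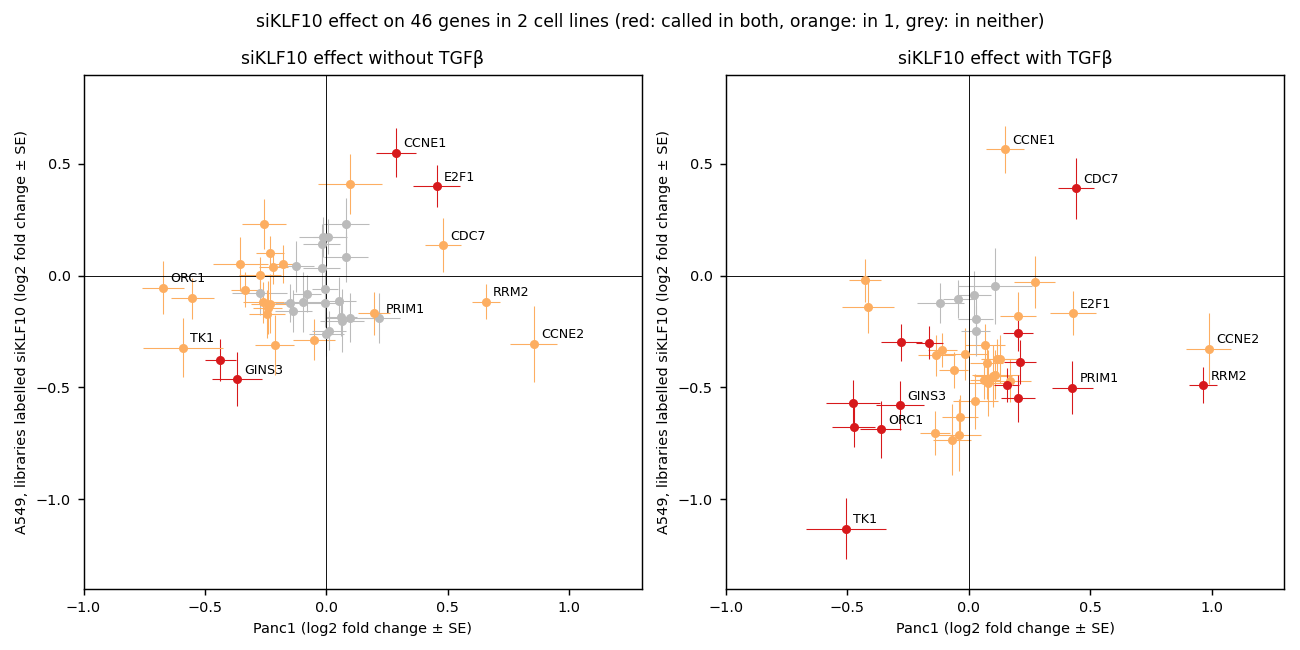
siKLF10 effect in Panc1 (x axis) against that in the A549 libraries labelled siKLF10 (y axis), log2 fold change ± SE, without TGFβ (left) and with TGFβ (right), for the 46 genes; red points were called in both lines, orange in 1 and grey in neither. Under TGFβ 44 of the 46 A549 estimates lie below 0, whereas 27 of the Panc1 estimates lie above it.

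The baseline levels of the lines differed as well. In siCont, with both lines scaled together, 26 of the 46 were higher in A549 and 13 lower, with a median of 0.32, beside 42.9% and 39% of all genes. PCNA measured 641 ± 21.4 CPM in A549 (SD, n = 2) and 125 ± 10.4 CPM in Panc1 (SD, n = 3), a 5.12-fold difference. CLSPN stood at 34.4 ± 3.70 CPM against 196 ± 1.48 CPM, DBF4 at 22.9 ± 0.297 against 97.6 ± 9.36 CPM and CDC7 at 26.8 ± 0.629 against 93.4 ± 5.11 CPM, all lower in A549. GINS4 (1.76), CDT1 (1.33) and LIG1 (1.26) were higher in A549. Reads that the counting assigned to no gene made up 57.6 to 60.2% of those assigned to a gene, to none or to several in A549, and 33.6 to 37.0% in Panc1, and their part in the differences of level was not tested.

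Other genes of the cell cycle moved the same way in some comparisons, the mitotic genes at larger shares than the 46 in several. Of 30 further replication genes, 14 rose and 1 fell in Panc1 when TGFβ was added to siKLF10, and 1 rose and 20 fell in A549. The 14 that rose are 46.7% of the 30, and the 20 that fell are 66.7%. Of 28 mitotic genes, which are transcribed later in the cycle, 21 rose and none fell in that Panc1 comparison, and none rose and 25 fell in A549. Their shares of 75% and 89.3% stand beside 60.9% and 69.6% of the 46 and 22.6% and 26.8% of all genes. siKLF10 under TGFβ lowered 24 of the 28 in A549 (85.7%, beside 69.6% of the 46 and 13.9% of all genes). In Panc1 7 rose and 7 fell under TGFβ, 25% each, beside 21.1% and 20.6% of all genes. Without TGFβ, siKLF10 lowered 15 (53.6%) and raised 1 (3.57%) in Panc1, beside 18.3% and 17.3% of all genes. In A549, the largest falls of mitotic genes with TGFβ after siKLF10 were those of PTTG1, the securin (-1.29), and NUSAP1, a spindle protein (-1.22). The A549 interaction was called lower for 17 of the 28 mitotic genes (60.7%) and for 1 of the 30 further replication genes (3.33%). The 15 of 46 above are 32.6%, and the share of all genes was 3.23%.

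Of 26 regulators of the G1/S step, 25 were tested in Panc1 and 23 in A549. In Panc1 7 rose and 4 fell with TGFβ, 9 and 3 with TGFβ after siKLF10, 5 and 7 with siKLF10, and 6 and 7 with siKLF10 under TGFβ. These are 28% and 16%, 36% and 12%, 20% and 28%, and 24% and 28% of the 25. Over all genes the shares were 14% and 15.1%, 22.6% and 22.3%, 17.3% and 18.3%, and 21.1% and 20.6%. In A549 the counts were 7 and 5, 6 and 6, 3 and 4, and 5 and 7 in the same order. CDKN1A, the inhibitor p21, measured 78.7 and 82.2 CPM in A549 siCont, 201 and 208 CPM with TGFβ, 191 and 214 CPM with siKLF10 and 368 and 398 CPM with both, in the lower and the higher library. It thus rose with each agent, by 1.35 ± 0.08 (adjusted p = 7.91e-12) with TGFβ and 1.34 ± 0.08 (adjusted p = 5.19e-10) in the libraries labelled siKLF10, and the group with both was the highest, 0.90 ± 0.08 (adjusted p = 3.27e-08) against TGFβ. In Panc1 CDKN1A rose with TGFβ (0.45, and 0.79 after siKLF10) and fell with siKLF10 (-0.49). Among the others, CCND3, a D cyclin, fell with TGFβ in A549 (-1.07 and -1.32), CDK6 rose there (0.96 and 1.21), and CDKN1B (p27) fell with TGFβ in both lines (-0.45 in Panc1 and -0.84 in A549). In Panc1, TFDP1, the DNA-binding partner of the E2Fs, fell with siKLF10 (-0.72, and -0.65 under TGFβ), and CDK6 rose (0.63 and 0.60).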

How the data were processed

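Poly(A)-selected RNA of 20 samples was sequenced from directional libraries, per the labels' protocols. Per the submitters' processing notes, the authors used TopHat, Bowtie2, HTSeq 0.6.0 and DESeq2 with build hg19; the deposited values are raw counts per gene, not normalized, for 23368 genes. The 5 summary lines of each table, of which the share assigned to no gene is given above, stayed out of library sizes and tests.

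Counts were tested with edgeR 4.0.16 in R 4.3.3 (TMM scaling, robust quasi-likelihood fit of group means). Genes were kept by filterByExpr with a minimum count of 10 and a minimum total of 15. There was 1 fit per line and 1 fit of both lines, which tested 15058 genes, for differences between them. The residual degrees of freedom were 8, 4 and 12, and the biological coefficient of variation common to all genes was 0.067 in each line. Benjamini-Hochberg adjustment ran over all tested genes, with calls under 0.05, and the SE is the log2 fold change divided by the root of the F statistic. The fits were also run on simulated counts with the same spread for every gene. That run cannot tell how they behave where genes or libraries differ in spread.

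The 46 genes and all other lists were chosen with earlier results of these data known. Up to 10 called genes per comparison were named by size of change, with CCNE2, CCNE1, E2F1, CDC6, MCM2, PCNA, RRM2 and CDT1 whether called or not. Values in every library were printed for 12 genes by the rule, and for RRM2 and CCNE1 after their values were seen. Alternatives were RLE and upper quartile scaling, no filter on low counts, DESeq2 1.42.0, a replicate block, only the groups compared, and each library left out in turn. Exon overlaps came from GENCODE gene models of another build than the files, used for gene pairs only.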

Additional observations from a re-analysis of the deposited data

Results flagged for a closer look

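Effects whose difference between groups was itself called, by the same edgeR test and Benjamini-Hochberg adjustment, were picked out, up to 5 per contrast by size. In Panc1 the TGFβ effect on RRM2 was higher after siKLF10 than after siCont, with a difference of 0.31, a call lost in 8 of 17 alternatives. In A549 the TGFβ effect was lower in the libraries labelled siKLF10 for TK1 (-0.81), CDC45 (-0.79), ORC1 (-0.63), GINS2 (-0.58) and MCM5 (-0.57). These calls were lost in 5, 1, 6, 8 and 3 of 13 alternatives, in that order.

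Between lines (Panc1 minus A549), the TGFβ effect after siCont differed most for CDC7 (1.09), PCNA (1.02), E2F8 (0.76), POLE2 (0.67) and DBF4 (0.66). The siKLF10 effect without TGFβ differed most for CCNE2 (1.18), RRM2 (0.80), ORC1 (-0.60), GINS2 (-0.46) and PRIM1 (0.43). Of these the call of PRIM1 was lost in 8, of GINS2 in 4 and of ORC1 in 1 of 15 alternatives. The siKLF10 effect under TGFβ differed most for RRM2 (1.42), CCNE2 (1.27), PRIM1 (0.89), RFC4 (0.71) and POLE2 (0.64). KLF10 was not lower in the A549 libraries labelled siKLF10 without TGFβ, and the part of that in these differences was not tested.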

How the results depend on the processing

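No called value changed sign under the alternatives run. With 1 library left out, the count of called genes among the 46 was 0 to 5 for the Panc1 interaction, 12 to 20 for siKLF10 under TGFβ in Panc1, 10 to 14 for TGFβ in A549, 2 to 4 for siKLF10 in A549, 1 to 24 for the A549 interaction and 3 to 9 for the difference of the siKLF10 effect between lines. DESeq2 called 3 in the Panc1 interaction, 11 for TGFβ in A549 and 9 in the A549 interaction. Fitting only the groups compared called 12 for siKLF10 in A549, and leaving out the filter called 10 for the difference of the TGFβ effect between lines. The causes of these changes were not tested.

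In Panc1 the letters of the libraries did not pair them. There 2 of 18 same-letter pairs had deviations correlated above 0.1, and 3 of 12 libraries correlated best with their own letter. In A549 these were 2 of 12 pairs and 6 of 8 libraries. With 2 libraries per group the deviations within a group mirror each other, so the A549 values do not settle whether the letters pair. With the replicate block, the Panc1 counts were 14 for TGFβ, 24 for siKLF10, 20 for siKLF10 under TGFβ, 28 for TGFβ after siKLF10 and 1 for the interaction. With the same block the A549 counts were 20, 7, 34, 38 and 17. Between lines the block gave 17 for the TGFβ effect, 8 for the siKLF10 effect, 25 for the siKLF10 effect under TGFβ and 40 for the siCont level.

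Precision in A549 is limited by 2 libraries per group, a depth from 6846761 counts and 63 counts at the lowest among the 46 (CCNE2).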
